A study of Mus musculus with 4 samples.

Results

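The 34 genes described here carry out or control the synthesis of sterols and fatty acids, and they were taken by symbol from the 55357 genes of the deposited single-cell count matrices of mouse ascending aorta. They comprise 18 enzymes of sterol synthesis, 6 genes of sterol sensing and transport, 8 enzymes of fatty acid synthesis and 2 sterol efflux transporters. Each of the 34 symbols matched a gene. The rule uses symbols and no measured value, but the genes were proposed with earlier results of these data known. The samples were 4 libraries of wild-type male mice, 2 labelled AD and 2 labelled AD_ABR. In both groups the mice were 3 weeks old at the start and drank beta-aminopropionitrile (BAPN), an inhibitor of the enzymes that cross-link collagen and elastin, at 1 g/kg per day for 4 weeks, which gives a model of aortic dissection. AD_ABR mice also received paquinimod (ABR-25757), a compound that binds S100A9, by gavage at 10 mg/kg per day until the end of the experiment. Mice without BAPN are not analysed here, so each comparison is between 2 sets of BAPN-treated mice. The labels do not say whether the 2 libraries of a group came from separate mice or from pools, and p-values therefore measure the spread between these libraries, which may be partly technical.

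Cells make cholesterol from acetyl-CoA through mevalonate, isoprenoids, squalene and lanosterol, and fatty acids from cytosolic acetyl-CoA through malonyl-CoA. Most enzymes of both branches are under the transcription factors SREBP2 (Srebf2) and SREBP1 (Srebf1), which are held in the endoplasmic reticulum by Scap and the Insig proteins while sterol is plentiful and are released to the nucleus when it is scarce. The efflux pumps Abca1 and Abcg1 are targets of the oxysterol-sensing liver X receptors (LXR) and are usually raised when sterol is plentiful. In the artery wall these genes are best known from smooth muscle cells and macrophages that take up and release cholesterol.

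The libraries held 76142840 and 99572011 UMIs (unique molecular identifiers, each marking 1 captured molecule) in AD and 93575612 and 98946431 in AD_ABR, and 37259 cells were kept in all. Cells were grouped by clustering, and a group is called by the cell type whose marker genes it expressed with the ending -like. Groups left without a name kept their cluster number. Cluster 2 expressed the fibroblast list and cluster 9 the macrophage list. Both stayed unnamed because other lists had more entries than these among the 10 genes most typical of each cluster. The fibroblast-like and macrophage-like classes may therefore lack some cells of these types. The names were rebuilt from markers and may differ from those of the submitters. Pairs of libraries shared 22 to 38 cell barcodes. AD replicate 1 stood apart from the others: it was the shallowest in median UMIs per kept cell (5268, against 7185 to 9452), held 1634 of the neutrophil-like cells against 10 to 232 in the others, and had the highest share of UMIs from Rn18s-rs5, a repeat that resembles ribosomal RNA (5.34%, against 3.23% in AD replicate 2 and 1.83% and 1.37% in AD_ABR). Each group of cells was summed per library, and levels below are counts scaled to that sum (CPM, the usual per-million unit).

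RefSeq promoters (build GRCm38.p6, 250 bases before to 50 bases after the start) were found for 26 of the 34 genes, and 6 are shown because the levels of these genes are followed through the results. Hmgcs1, Idi1, Cyp51, Msmo1 and Insig1 were lower in AD_ABR in smooth muscle-like cells, and Ebp is shown beside them as the sterol enzyme with the opposite sign. The sequences run 5′ to 3′ on the gene's strand. Capitals mark CACCCCAC (the form of a known SREBP site), CCAAT (the box bound by NF-Y, a known partner of SREBPs) and CACGTG (an E-box), each searched on both strands, so that CCAAT on the other strand reads as ATTGG.
Hmgcs1, chr13:119690101-119690400, plus strand: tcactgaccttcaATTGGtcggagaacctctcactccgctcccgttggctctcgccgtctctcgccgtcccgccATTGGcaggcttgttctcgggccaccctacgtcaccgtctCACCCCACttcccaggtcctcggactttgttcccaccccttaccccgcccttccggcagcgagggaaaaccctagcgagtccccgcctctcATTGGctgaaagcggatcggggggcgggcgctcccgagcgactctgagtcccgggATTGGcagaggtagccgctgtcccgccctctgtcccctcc
Idi1, chr13:8885356-8885655, plus strand: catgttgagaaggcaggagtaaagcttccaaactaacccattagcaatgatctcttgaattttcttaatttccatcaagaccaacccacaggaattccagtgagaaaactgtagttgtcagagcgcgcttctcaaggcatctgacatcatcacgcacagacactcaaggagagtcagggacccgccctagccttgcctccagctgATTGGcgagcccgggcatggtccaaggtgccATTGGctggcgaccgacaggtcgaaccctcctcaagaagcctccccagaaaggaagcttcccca
Cyp51, chr5:4104648-4104947, minus strand: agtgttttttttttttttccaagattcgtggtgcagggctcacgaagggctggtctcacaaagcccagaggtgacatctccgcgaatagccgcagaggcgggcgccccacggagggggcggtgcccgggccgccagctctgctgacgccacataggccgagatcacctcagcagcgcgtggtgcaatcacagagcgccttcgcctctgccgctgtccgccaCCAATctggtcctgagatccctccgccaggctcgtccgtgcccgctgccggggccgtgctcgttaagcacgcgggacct
Msmo1, chr8:64733529-64733828, minus strand: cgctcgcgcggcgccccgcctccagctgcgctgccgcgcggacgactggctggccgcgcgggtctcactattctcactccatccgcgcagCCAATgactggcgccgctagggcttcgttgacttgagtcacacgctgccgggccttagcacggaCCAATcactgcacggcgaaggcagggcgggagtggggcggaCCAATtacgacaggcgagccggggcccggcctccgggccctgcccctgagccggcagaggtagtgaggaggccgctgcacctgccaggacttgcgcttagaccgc
Insig1, chr5:28071162-28071461, plus strand: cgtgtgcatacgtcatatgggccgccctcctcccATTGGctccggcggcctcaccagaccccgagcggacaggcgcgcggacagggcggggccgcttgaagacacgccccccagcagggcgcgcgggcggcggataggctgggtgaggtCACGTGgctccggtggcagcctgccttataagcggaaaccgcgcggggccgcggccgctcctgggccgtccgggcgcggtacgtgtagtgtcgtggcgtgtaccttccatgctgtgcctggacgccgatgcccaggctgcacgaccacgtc
Ebp, chrX:8193463-8193762, minus strand: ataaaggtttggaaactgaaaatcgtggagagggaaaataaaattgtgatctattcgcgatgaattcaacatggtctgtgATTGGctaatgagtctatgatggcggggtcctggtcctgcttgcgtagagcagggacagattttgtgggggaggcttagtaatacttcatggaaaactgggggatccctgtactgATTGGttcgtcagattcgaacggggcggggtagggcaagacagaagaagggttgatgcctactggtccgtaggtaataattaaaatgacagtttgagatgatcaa

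CCAAT was in the promoters of 20 of the 26 genes (76.9%), against 41.1% of the 27025 genes in the same table. It occurred in 11 of the 13 matched genes that were lower in AD_ABR in smooth muscle-like cells and in 9 of the 13 that did not pass that test, Ebp among them. The E-box letters were in 6 of the 26 (23.1%, against 8.09% of all genes) and CACCCCAC in 2, Hmgcs1 and Acat2 (7.69%, against 3.30%). A match is a description of the letters in this window and not evidence of binding.

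In smooth muscle-like cells, 19 of the 34 genes fell in AD_ABR and none rose. The largest falls were those of Stard4, a carrier of sterol between membranes, the desaturase Scd2, the isoprenoid isomerase Idi1, the efflux pump Abcg1, the sterol reductase Hsd17b7 and the sterol sensor Insig1, whose AD means were 2.55 to 3.44 times their AD_ABR means. The fall took in 10 of 18 sterol enzymes, 3 of 6 sensing and transport genes, 4 of 8 fatty acid enzymes and 2 of 2 efflux transporters. Of these, Abcg1 was barely detected, and its call did not hold when any 1 library was left out. All 34 genes passed the filter on low counts, and their median log2 fold change (AD_ABR minus AD) was −0.66, against −0.02 over the 14643 genes tested in this class. Of those 14643 genes 7.68% were lower and 5.93% higher by the same test, edgeR's quasi-likelihood test with Benjamini-Hochberg adjustment over all genes of the class and a threshold of 0.05. Before adjustment 1 gene, Ebp, was higher at p under 0.05, and DESeq2 called none higher and 16 lower. For 28 of the 34 genes both AD libraries lay above both AD_ABR libraries, against 31.7% of all genes tested, for 1 the order was the opposite, and for 5 the groups overlapped. The class joined clusters 0 and 1, with 827 and 1812 cells from the AD libraries and 3397 and 2715 from AD_ABR. All 10 smooth muscle markers, among them Acta2, Myh11 and Tagln, were tested in it, and 1 was lower and 1 higher in AD_ABR. Their sums were 35974 and 42771 CPM in AD and 47182 and 51289 in AD_ABR, so that the groups did not overlap, and the part of this shift in the result was not tested. Values in this part are CPM after edgeR's TMM scaling between libraries, with mean ± SD over n = 2 and the log2 fold change ± its standard error (SE).

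**Figure D1:**
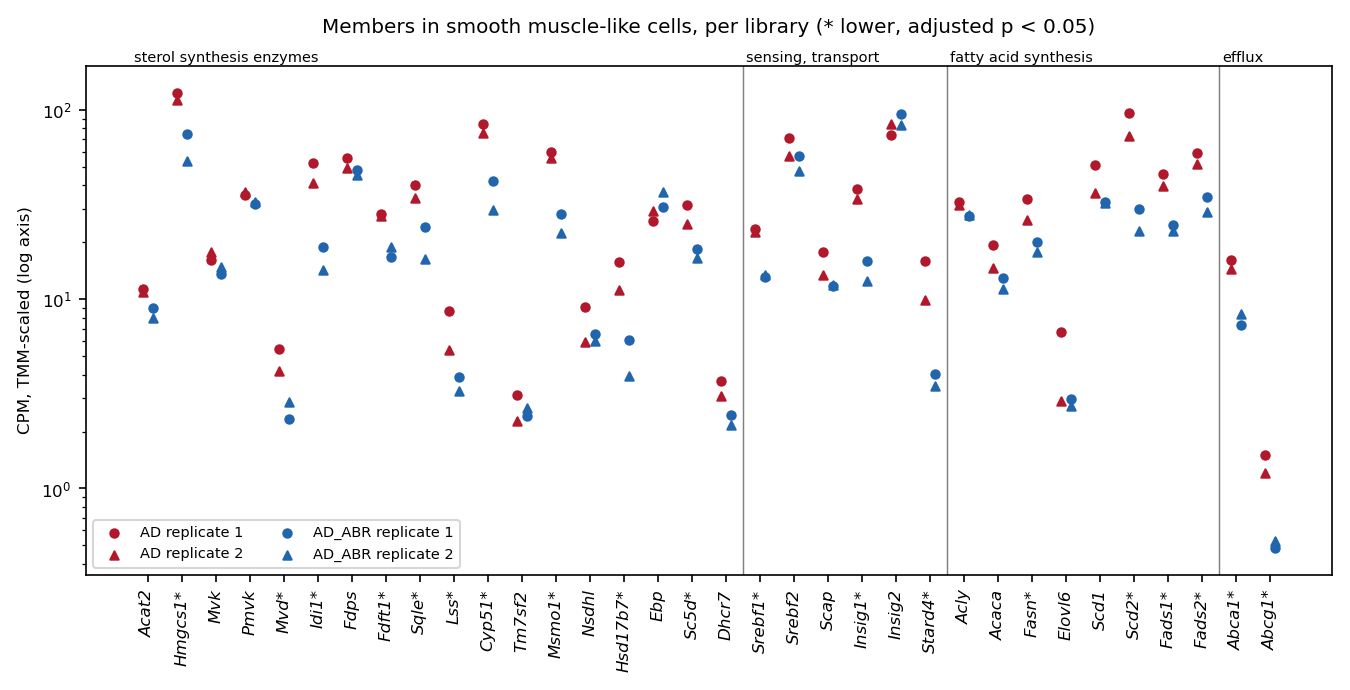
TMM-scaled CPM (log axis) of each of the 34 genes in smooth muscle-like cells, 1 point per library, with circles for replicate 1 and triangles for replicate 2 of AD (red) and AD_ABR (blue), in the order of the pathways. An asterisk marks the 19 genes that were lower in AD_ABR, and in each of them both red points lie above both blue points.

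The first steps of the sterol pathway build mevalonate and turn it into isoprenoid units. Hmgcs1, which condenses acetyl-CoA and acetoacetyl-CoA to HMG-CoA (chromosome 13, 119690379 to 119708260 in GRCm38, GENCODE M21), stood at 123 and 112 CPM in AD and 74.2 and 53.8 in AD_ABR. The groups did not overlap, and the gene fell by 0.87 ± 0.14 on the log2 scale (adjusted p = 0.00111). Mvd, which decarboxylates mevalonate diphosphate (chromosome 8, 122433601 to 122443422), was rare, at 5.45 and 4.16 CPM in AD and 2.34 and 2.88 in AD_ABR. It fell by 0.86 ± 0.26 (adjusted p = 0.0353), from sums of 40 to 87 UMIs per library. Idi1, the isomerase that supplies dimethylallyl diphosphate (chromosome 13, 8885501 to 8892451), was at 52.2 and 41.3 CPM in AD and at 18.8 and 14.3 in AD_ABR. Its AD mean of 46.7 ± 7.69 was 2.82 times the AD_ABR mean of 16.6 ± 3.21 (log2 fold change −1.47 ± 0.15, adjusted p = 4.36e-05), the largest fall among the 18 sterol enzymes. The other enzymes of these steps did not pass the test. Acat2, which makes acetoacetyl-CoA, had a log2 fold change of −0.38 (adjusted p = 0.109), the mevalonate kinases Mvk and Pmvk −0.27 and −0.18, and Fdps, which makes farnesyl diphosphate, −0.16 (55.4 and 49.6 CPM in AD, 48.1 and 45.2 in AD_ABR).

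Squalene and the sterol ring are made next. Fdft1, squalene synthase (chromosome 14, 63145150 to 63179578), was at 28.1 and 27.5 CPM in AD and 16.7 and 18.9 in AD_ABR. It fell by 0.65 ± 0.13 (adjusted p = 0.00387), with little spread within either group. Sqle, the squalene epoxidase and a rate-limiting enzyme of the pathway (chromosome 15, 59315077 to 59331192), was at 40.2 and 34.1 CPM in AD and 24.1 and 16.3 in AD_ABR. It fell by 0.86 ± 0.17 (adjusted p = 0.00642), and AD_ABR replicate 2 was the lowest library. Lss, which closes the ring to lanosterol (chromosome 10, 76531588 to 76557138), was at 8.72 and 5.36 CPM in AD and 3.90 and 3.25 in AD_ABR. Its fall of 0.91 ± 0.24 (adjusted p = 0.0195) came from AD libraries that themselves differed, and it did not pass without AD replicate 1 or without AD_ABR replicate 2.

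The later enzymes demethylate and rearrange lanosterol. Cyp51, the lanosterol demethylase (chromosome 5, 4081145 to 4104746), was at 84.2 and 75.8 CPM in AD and 42.3 and 29.4 in AD_ABR. The gap between the groups was larger than the spread within them, and the log2 fold change was −1.15 ± 0.15 (adjusted p = 0.000384). Msmo1, the C4-methylsterol oxidase (chromosome 8, 64718139 to 64733792), was at 59.7 and 55.8 CPM in AD and 28.1 and 22.3 in AD_ABR, and fell by 1.19 ± 0.13 (adjusted p = 4.24e-05). Hsd17b7, the 3-ketosteroid reductase of the same demethylation (chromosome 1, 169949535 to 169969241), was at 15.8 and 11.2 CPM in AD and 6.10 and 3.94 in AD_ABR. Its AD mean was 2.69 times its AD_ABR mean (−1.37 ± 0.22, adjusted p = 0.00160). Sc5d, the sterol C5-desaturase (chromosome 9, 42251595 to 42264256), was at 31.5 and 25.0 CPM in AD and 18.4 and 16.6 in AD_ABR, and fell by 0.67 ± 0.14 (adjusted p = 0.00473). Nsdhl, which acts between Msmo1 and Hsd17b7, overlapped between the groups at 9.13 and 5.97 CPM in AD and 6.53 and 6.02 in AD_ABR (log2 fold change −0.21, adjusted p = 0.529). Tm7sf2, a sterol C14-reductase, was at 2.28 to 3.13 CPM in all libraries (−0.05 ± 0.28), and Dhcr7, which makes cholesterol in the last step of one branch, was at 3.68 and 3.08 CPM in AD and 2.45 and 2.16 in AD_ABR (−0.52 ± 0.27, adjusted p = 0.200).

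Ebp, the sterol isomerase on the X chromosome (8185329 to 8193512), had the opposite sign. It was at 26.0 and 29.4 CPM in AD and 30.8 and 37.0 in AD_ABR, with both AD_ABR libraries above both AD libraries. Its log2 fold change of 0.28 ± 0.13 did not pass the test (adjusted p = 0.163). Ebp was above 0 in each of the 11 classes tested (0.04 to 0.96), and it passed in none of them.

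Among the genes of sterol sensing, Insig1 and Insig2, which both retain the Scap-SREBP complex, differed in sign. Insig1 (chromosome 5, 28071363 to 28078662), itself a known SREBP target, was at 38.4 and 33.7 CPM in AD and 15.8 and 12.5 in AD_ABR. It fell by 1.33 ± 0.14 (adjusted p = 3.74e-05), and the AD mean was 2.55 times the AD_ABR mean. Insig2 (chromosome 1, 121304353 to 121332589), which is not under SREBP control in the same way, was at 73.8 and 84.1 CPM in AD and 95.3 and 83.0 in AD_ABR. These groups overlapped, and its log2 fold change of 0.17 ± 0.12 did not pass (adjusted p = 0.369). Srebf1, which encodes SREBP1 (chromosome 11, 60199089 to 60222581), was at 23.6 and 22.5 CPM in AD and 13.1 and 13.4 in AD_ABR. It fell by 0.79 ± 0.13 (adjusted p = 0.000975), with little spread within either group. Srebf2, which encodes SREBP2, overlapped at 70.7 and 56.8 CPM in AD and 57.4 and 47.7 in AD_ABR (−0.27 ± 0.13, adjusted p = 0.190). Scap was at 17.8 and 13.5 CPM in AD and 11.7 and 11.8 in AD_ABR (−0.38 ± 0.15, adjusted p = 0.107). Stard4, a small sterol transport protein under SREBP control, was at 15.9 and 9.92 CPM in AD and 4.03 and 3.48 in AD_ABR. It had the largest fold change of the 34 genes, −1.73 ± 0.22 (adjusted p = 0.000127), although the AD libraries differed from each other.

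Fatty acid synthesis starts with Acly, which makes cytosolic acetyl-CoA, and Acaca, which makes malonyl-CoA, and neither passed the test. Acly was at 32.7 and 31.4 CPM in AD and 27.5 and 27.9 in AD_ABR (log2 fold change −0.21, adjusted p = 0.253), and Acaca at 19.3 and 14.6 against 12.96 and 11.4 (−0.45, adjusted p = 0.0655). Fasn, the fatty acid synthase (chromosome 11, 120805846 to 120824547), was at 34.1 and 26.1 CPM in AD and 20.02 and 17.8 in AD_ABR, and fell by 0.64 ± 0.14 (adjusted p = 0.00713). The desaturases differed among themselves. Scd2, a stearoyl-CoA desaturase (chromosome 19, 44293674 to 44306864), was at 96.4 and 73.2 CPM in AD and 29.9 and 23.0 in AD_ABR. Its AD mean of 84.8 ± 16.4 was 3.20 times its AD_ABR mean of 26.5 ± 4.86 (−1.66 ± 0.16, adjusted p = 3.74e-05). Scd1, the neighbouring gene of the same family, was at 50.9 and 36.5 CPM in AD and 32.5 and 32.1 in AD_ABR (−0.42 ± 0.14, adjusted p = 0.0609). The 2 genes are close relatives, and reads from their shared sequence may be split between them or lost in the counting.

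Fads1 and Fads2, the front-end desaturases that make polyunsaturated fatty acids, lie next to each other on chromosome 19 (10182888 to 10196877 and 10062765 to 10101746). Fads1 was at 45.6 and 39.5 CPM in AD and 24.7 and 22.9 in AD_ABR (−0.83 ± 0.12, adjusted p = 0.000445). Fads2 was at 59.4 and 52.1 CPM in AD and 34.6 and 29.0 in AD_ABR (−0.80 ± 0.13, adjusted p = 0.000703). The groups of neither gene overlapped, and the falls were of like size. Elovl6, the elongase of saturated fatty acids, was at 6.67 and 2.88 CPM in AD and 2.96 and 2.72 in AD_ABR, so that AD replicate 1 alone stood above the rest (−0.64 ± 0.32, adjusted p = 0.198).

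The efflux transporters fell along with the synthesis genes. Abca1, which loads cholesterol onto apolipoprotein A-I (chromosome 4, 53030787 to 53159895), was at 16.2 and 14.4 CPM in AD and 7.31 and 8.36 in AD_ABR. It fell by 0.96 ± 0.15 (adjusted p = 0.000748), and the groups did not overlap. Abcg1, which exports sterol to lipoprotein particles (chromosome 17, 31057675 to 31117988), was barely detected, with 11 and 18 UMIs in AD and 18 and 14 in AD_ABR, or 1.498 and 1.21 against 0.484 and 0.530 CPM. Its log2 fold change of −1.38 ± 0.42 (adjusted p = 0.0405) did not pass when any 1 of the 4 libraries was left out. Both genes were far higher in myeloid classes than in smooth muscle-like cells (unscaled CPM of Abca1 180 to 270 in macrophage-like cells, of Abcg1 86.6 and 82.7 in the neutrophil-like cells of AD). In the smooth muscle-like sums the 11 macrophage markers added up to 106 and 90.4 TMM-scaled CPM in AD and 93.7 and 110 in AD_ABR, with 1 of 10 tested lower. The 10 neutrophil markers added up to 50.8 and 7.77 in AD and 4.92 and 4.43 in AD_ABR, with 1 of 4 tested lower and Ly6g at 0. What these transcripts contributed to the fall of Abcg1 and Abca1 was not tested.

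Other properties of the smooth muscle-like sums moved with the groups. Rn18s-rs5 took 6.30% and 4.10% of their UMIs in AD and 2.04% and 1.61% in AD_ABR, and Lars2, the mitochondrial leucyl-tRNA synthetase, was at 1520 and 1222 unscaled CPM in AD and 587 and 470 in AD_ABR. The 9 markers of proliferating cells added up to 15.9 and 13.9 TMM-scaled CPM in AD and 5.62 and 5.26 in AD_ABR, and 5 of the 9 were lower. Of the 5 lymphatic endothelial markers tested 3 were lower (sums of 14.4 and 17.2 in AD, 12.6 and 12.9 in AD_ABR). Of the 12 fibroblast markers 4 were lower (sums of 7130 and 6852 in AD, 6281 and 6837 in AD_ABR). In 14 of the 25 marker lists at least 1 marker passed the test, and sums moved both ways. Dendritic markers summed to 2105 and 2231 in AD and 2721 and 3242 in AD_ABR, plasma markers to 107 and 100 against 156 and 154. Brown adipocyte markers were at 24.7 and 28.8 against 40.8 and 38.7, and cardiac or skeletal muscle markers at 377 and 289 against 207 and 250. Their part in the result was not tested. With Rn18s-rs5 left out of the library sizes the count of members that fell was 19, and with every library's sum thinned to the smallest total it was 18. It was 18 in cluster 0 alone and 17 in cluster 1 alone.

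Of the 19 genes, 15 passed in each of the 16 other settings of counting, clustering, testing or libraries, and Abcg1, Lss, Mvd and Fdft1 did not pass in at least 1. The signs did not change. Fdft1 was lost without AD_ABR replicate 1 only (adjusted p = 0.0546), and Mvd in 7 settings.

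**Figure D2:**
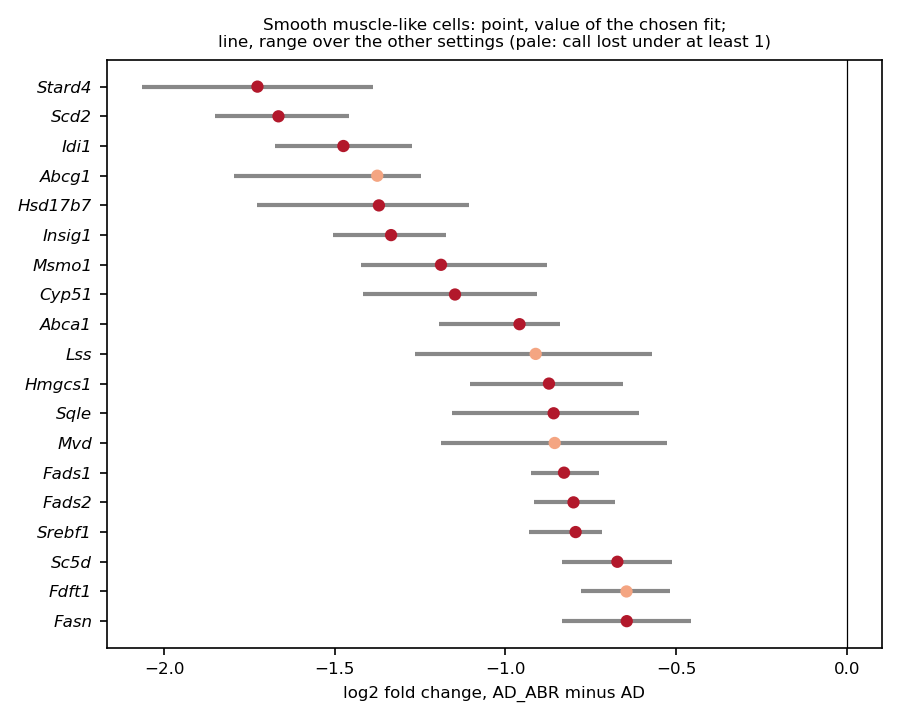
Log2 fold change (AD_ABR minus AD) in smooth muscle-like cells of the 19 genes that fell: the point is the value reported in the text and the line spans the values under the other settings, with pale points for the 4 genes that did not pass in at least 1 of them. All lines lie below 0, Stard4 and Scd2 furthest.

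The same genes were tested in 10 other classes, of which 4 held at least 1 member that fell and 6 held none. No member rose in any class by edgeR, where the share of all genes that were higher was 1.52% in endothelial-like cells, 0.744% in cluster 13, 0.439% in cluster 7, 0.394% in dendritic-like cells, 0.38% in cluster 2, 0.142% in macrophage-like cells, 0.126% in fibroblast-like cells and 0 in the other 3 classes. At an unadjusted p under 0.05 Ebp was higher in clusters 2 and 14, and DESeq2 called no member higher in these classes. The members that did fall in other classes were all among the 19. The median log2 fold change of the members that passed the filter was negative in each class, from −0.20 in cluster 2 to −0.77 in cluster 14, and the median of all genes was between −0.02 and 0.01. Hmgcs1, Cyp51, Insig1, Srebf2, Scd2 and Fads2 were below 0 in each of the 11 classes. Insig2 was below 0 in 1 of 11 (cluster 13, −0.06), and reached 0.67 in dendritic-like cells without passing.

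**Figure D3:**
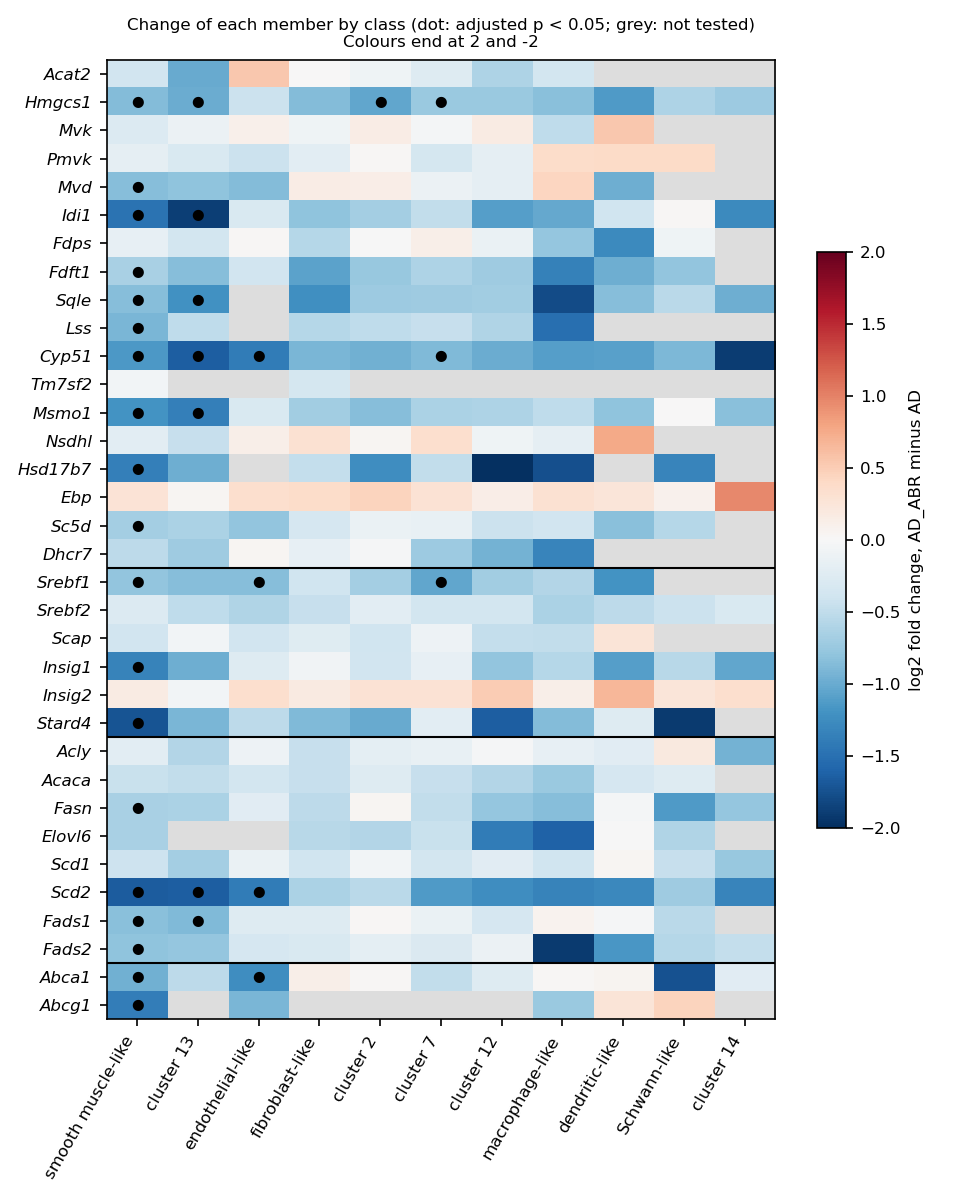
Log2 fold change (AD_ABR minus AD, blue lower and red higher) of each of the 34 genes in each of the 11 tested classes, with a dot where the edgeR test passed and grey where a gene was too low to test. Dots stand in the columns of smooth muscle-like cells, cluster 13, endothelial-like cells and clusters 2 and 7, and red prevails in the rows of Ebp, Insig2 and Nsdhl.

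Cluster 13 had the next most members that fell, 7 of the 31 tested, where 1.08% of 10343 genes were lower. It expressed Rgs5, Lypd8l, Dlx6 and Msx2 and carried smooth muscle markers (16569 to 21289 TMM-scaled CPM in sum), but no list named it. Its pericyte markers, Rgs5 among them, summed to 3499 to 4964, against 695 to 825 in smooth muscle-like cells. Smooth muscle markers also summed to 9502 to 18430 in cluster 14, where no member passed. In cluster 13 Idi1 was at 72.9 and 39.9 CPM in AD and 12.7 and 15.9 in AD_ABR (−1.89 ± 0.27, adjusted p = 0.000678). Cyp51 was at 85.5 and 62.5 against 23.3 and 22.5 (−1.65 ± 0.20, adjusted p = 0.000171), and Scd2 at 147 and 86.7 against 39.5 and 31.2 (−1.65 ± 0.21, adjusted p = 0.000298). In these genes AD replicate 1 was the highest library, and the AD_ABR libraries lay closer together than the AD libraries. Msmo1, at 56.1 and 69.6 CPM in AD and 27.7 and 21.8 in AD_ABR, fell by 1.37, and Sqle, at 54.7 and 39.1 against 22.7 and 15.9, by 1.21. Hmgcs1 was at 189 and 128 CPM in AD and 89.6 and 64.1 in AD_ABR, and Fads1 at 58.9 and 50.02 against 27.7 and 30.6, falls of 1.00 and 0.88. AD contributed 92 and 194 cells to the cluster and AD_ABR 341 and 350, and the neutrophil markers summed to 135 TMM-scaled CPM in AD replicate 1 against 3.13 to 4.56 elsewhere, with none of them passing the filter. The count of members that fell varied with the library left out, and the share of all genes lower in those fits is not given. Fads1 did not pass without AD replicate 1, without AD_ABR replicate 1, in thinned sums or with DESeq2 (adjusted p up to 0.391), Sqle did not pass with DESeq2 (0.155), and Hmgcs1 did not pass without AD_ABR replicate 2 (0.0717).

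In endothelial-like cells 4 of the 29 members tested fell, where 4.02% of 10762 genes were lower. The 10 endothelial markers added up to 7977 and 8308 TMM-scaled CPM in AD and 8438 and 8069 in AD_ABR. Scd2 was at 147 and 114 CPM in AD and 49.9 and 48.4 in AD_ABR (−1.40 ± 0.17, adjusted p = 0.000520). Abca1 was at 44.5 and 71.7 against 25.5 and 24.8 (−1.25 ± 0.22, adjusted p = 0.00538). Both AD_ABR libraries agreed closely in these genes, while the AD libraries were spread. Srebf1 was at 26.7 and 24.8 CPM in AD and 13.7 and 14.6 in AD_ABR (adjusted p = 0.0467), and Cyp51, from only 11 to 38 UMIs per library, at 13.1 and 11.8 against 4.07 and 5.29 (adjusted p = 0.0354). Abcg1, at 23.1 and 16.8 CPM in AD and 8.88 and 11.8 in AD_ABR, did not pass (adjusted p = 0.0902). Of these 4 genes only Scd2 kept its call without either AD_ABR replicate. The count of members that fell was larger without AD replicate 2, and the share of all genes lower in that fit is not given. Srebf1 and Cyp51 also did not pass with DESeq2 or in thinned sums. Markers of lymphatic endothelium moved with the groups in this class, at 97.3 and 64.9 TMM-scaled CPM in AD and 27.0 and 26.0 in AD_ABR with 3 of 4 tested lower, and their part in the result was not tested.

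Cluster 7, led by Prss12 and Tnfrsf11b, had 3 members that fell of 32 tested, where 0.422% of genes were lower. Hmgcs1 was at 92.7 and 80.7 CPM in AD and 57.1 and 46.5 in AD_ABR (adjusted p = 0.0300), Cyp51 at 43.8 and 59.2 against 31.4 and 25.0 (adjusted p = 0.0328), and Srebf1 at 32.4 and 24.8 against 14.9 and 12.7 (adjusted p = 0.0300). In cluster 2, led by Fmod and Inmt, 1 of 32 fell (0.647% of genes lower), namely Hmgcs1, at 65.7 and 75.1 CPM in AD and 42.3 and 27.5 in AD_ABR (adjusted p = 0.0316). The fibroblast markers summed to 68550 to 85104 TMM-scaled CPM in cluster 2, against 52493 to 64984 in the fibroblast-like class. The call in cluster 2 did not hold without AD replicate 1, AD replicate 2 or AD_ABR replicate 2, although other members passed there in some of these fits. The 3 calls in cluster 7 did not hold without AD_ABR replicate 2, in thinned sums or with DESeq2, and more members passed there without AD replicate 2. The share of all genes lower in the fits with 1 library left out is not given. These shifts are therefore not shown to be particular to the members.

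No member passed the edgeR test in the remaining 6 classes. At an unadjusted p under 0.05, 15 members were lower in fibroblast-like cells, 16 in macrophage-like, 10 in dendritic-like, 7 in Schwann-like, 13 in cluster 12 and 5 in cluster 14, with 1 (Ebp in cluster 14) higher, and DESeq2 called 1 lower in fibroblast-like cells, 1 in cluster 12 and none in the other 4. After adjustment few genes of any kind were called lower in these classes, 0.231% in fibroblast-like cells, 0.151% in macrophage-like, 0.457% in dendritic-like, 0.161% in Schwann-like, 0.0182% in cluster 12 and 0.0418% in cluster 14. The share of all genes at the unadjusted threshold was not counted, so the unadjusted counts of members have no share to be set against. Sqle had the most negative log2 fold change of the members in fibroblast-like cells, where their median was −0.40. It was at 12.7 and 11.1 CPM in AD and 6.57 and 3.79 in AD_ABR there (−1.23 ± 0.27, adjusted p = 0.121). In macrophage-like cells it was at 8.92 and 12.5 against 2.86 and 3.19 (−1.79 ± 0.36, adjusted p = 0.105). The groups of Sqle did not overlap in either class, and the share of all genes without overlap is not given for these classes. The data do not show that Sqle was unchanged there. The macrophage-like count was 16 without AD replicate 2 and 5 without AD replicate 1. The count was 7 in fibroblast-like cells without AD_ABR replicate 1, 6 in cluster 12 without AD replicate 1, and 5 in Schwann-like, 4 in dendritic-like cells and 2 in cluster 14 without AD replicate 2. The share of all genes called lower in those fits is not given here. Cluster 15, 1 of the 2 clusters of the macrophage-like class, held 25 of its 1055 cells in AD replicate 1 and 395 of 927 in AD_ABR replicate 2.

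When all cells of a library were summed, 3 of the 34 genes fell (2.4% of 20196 genes were lower and 0.975% higher): Stard4, at 22.5 and 16.3 CPM in AD and 7.35 and 6.64 in AD_ABR, Elovl6, at 11.6 and 9.32 against 4.73 and 4.93, and Scd2, at 112 and 91.7 against 52.9 and 55.2. The count was larger without AD replicate 2, and the share of all genes lower in that fit is not given. These sums mix levels with cell make-up, since the smooth muscle-like class took 827 (replicate 1, of 9154) and 1812 (replicate 2, of 9782) cells of AD, against 3397 (of 8451) and 2715 (of 9872) for AD_ABR. None of the 3 passed without AD_ABR replicate 1, without AD_ABR replicate 2 or with the replicate number as a block, where the highest adjusted p was 0.301 for Stard4, 0.362 for Elovl6 and 0.367 for Scd2.

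The change in smooth muscle-like cells was compared with that in each of 5 other named classes by a class by group interaction in edgeR, with the library as a term. For 5 of 34 members the change in fibroblast-like cells differed from that in smooth muscle-like cells (2.4% of 15578 genes differed in either direction). Insig1 was at 45.8 and 39.5 CPM in AD and 48.0 and 33.7 in AD_ABR in fibroblast-like cells, where the groups overlapped, and its changes in the 2 classes differed by 1.27 ± 0.15 (adjusted p = 0.000226). Scd2 was at 135 and 104 against 80.2 and 74.0 in fibroblast-like cells, a smaller fall, with a difference of 1.05 ± 0.14 (adjusted p = 0.000755). Abca1 was at 56.8 and 56.1 against 54.2 and 68.5, with no shift in one direction, and differed by 1.058 ± 0.16 (adjusted p = 0.00210). These 3 passed whichever library was left out. Hsd17b7 (difference 0.91, adjusted p = 0.0411) did not pass without AD replicate 1 or without AD_ABR replicate 1, and Fads1 (0.58, adjusted p = 0.0450) did not pass without any 1 of the 4. Among the other 29 members the difference did not pass, and its sign varied: Mvd and Idi1 differed by 0.99 and 0.62, and Fdft1 and Fdps by −0.46 and −0.44.

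**Figure D4:**
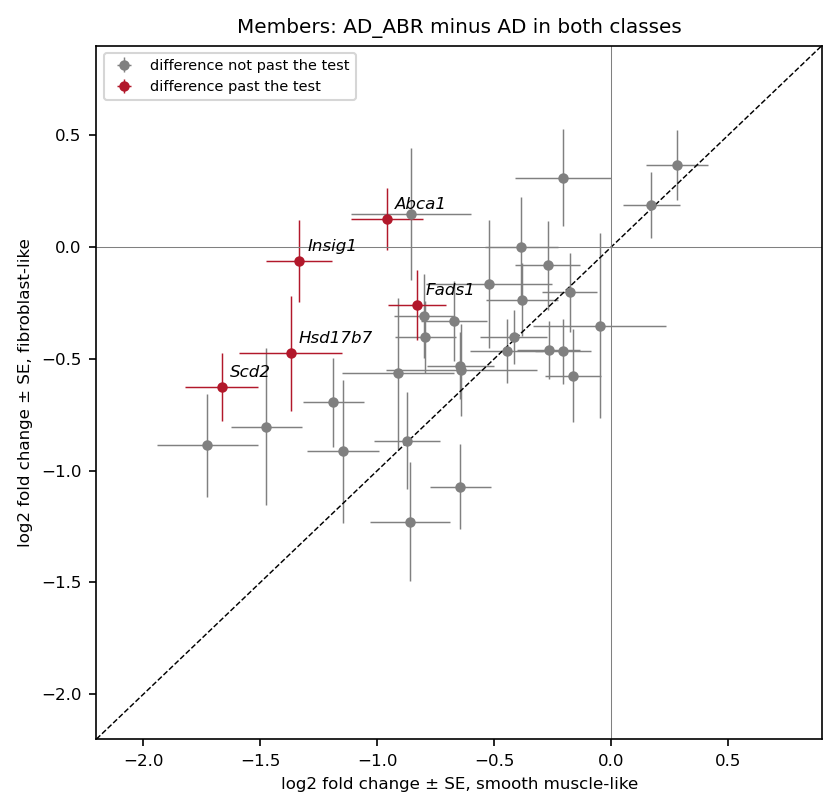
Log2 fold change ± SE (AD_ABR minus AD) of the 33 genes tested in both classes, smooth muscle-like on the x axis and fibroblast-like on the y axis, with the dashed line where both are equal and red points where the difference passed the test. Of the 33, 25 lie above the line and 8 below it, and Insig1 and Abca1 are the red points near or above 0 on the y axis.

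In endothelial-like cells the changes of 2 members, Insig1 and Stard4, differed from those in smooth muscle-like cells (3.99% of 13193 genes differed). Insig1 was at 35.6 and 26.4 CPM in AD and 24.8 and 26.0 in AD_ABR there (difference 1.09 ± 0.22, adjusted p = 0.00407), and Stard4 at 47.5 and 40.7 against 28.1 and 32.9 (1.17 ± 0.25, adjusted p = 0.00668). Neither passed without AD_ABR replicate 1 or without AD_ABR replicate 2. In Schwann-like cells those of 3 members did (0.806% of 13035 genes differed). Idi1 was at 183 and 140 CPM in AD and 157 and 175 in AD_ABR (difference 1.70 ± 0.32, adjusted p = 0.000120) and Msmo1 at 183 and 261 against 185 and 258 (1.36 ± 0.30, adjusted p = 0.00139), so that the groups overlapped in both. Scd2 ran from 503 to 2170 CPM within AD alone (1.39 ± 0.30, adjusted p = 0.00125). None of these 3 kept its call in every leave-one-out fit. No member differed in dendritic-like (0.938% of genes) or macrophage-like cells (0.262%) by edgeR, where 7 members each had an unadjusted p under 0.05. The share of all genes at that unadjusted threshold was not counted. The fits with 1 library left out were not stable in these classes, and the sign of the difference varied. Without AD replicate 1 it was 0.98 for Msmo1 and 0.86 for Insig1 in macrophage-like cells. In the same fit Sqle and Srebf2 had −1.17 and −0.60, a change below that in smooth muscle-like cells. Fdps had −1.63 in dendritic-like cells without that library.

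Levels between classes are given as unscaled CPM and with no test, since the classes were built from expression. Libraries with fewer than 50 cells of a class were left out. Schwann-like cells, the glia of peripheral nerve, which make large amounts of membrane lipid, had the highest mean for 22 of the 34 genes. Some classes, such as the B-like and lymphatic endothelial-like ones, had enough cells in AD only, and over the AD libraries alone Schwann-like cells were highest for 24 genes, Stard4 and Srebf1 being added. Scd2 was at 2141 and 506 in the AD and 770 and 884 in the AD_ABR libraries of Schwann-like cells, against 126 on average in cluster 10, the next class. The lowest Schwann-like library thus lay above the highest of the next class (193). Hmgcs1 was at 799, 691, 517 and 468, against a highest value of 187 in cluster 13. Elovl6 was at 246, 102, 123 and 117, against at most 26.5 in T-like cells. Idi1, Cyp51, Msmo1, Sqle, Fdft1, Sc5d, Insig1 and Fads1 were also separated from the class with the next highest mean in every library. The other 11 genes, among them Acat2, Pmvk, Fdps, Lss, Srebf2, Fasn and Fads2, were highest in Schwann-like cells only in the mean, and their ranges overlapped with those of the next class.

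The other genes peaked elsewhere. Scd1 was highest in B-like cells, at 390 and 276 in the 2 AD libraries, followed by Schwann-like cells at 88.3 to 131, a pattern unlike that of Scd2. Abca1 was highest in cluster 9, led by Arg1 and Ppbp, at 480 and 459 in AD, and second in macrophage-like cells (180 to 270). Smooth muscle-like cells had the lowest mean of Abca1 among these classes (11.7). Abcg1 was highest in neutrophil-like cells, followed by B-like cells (61.4 and 76.7), and Insig2 in cluster 13 (108 to 152). Stard4 stood at 64.6 and 51.6 in the AD libraries of lymphatic endothelial-like cells. In Schwann-like cells it was at 75.4 and 70.4 in AD, above both of these values, and at 22.1 and 17.6 in AD_ABR. Clusters with 50 cells in AD libraries only, such as the B-like and neutrophil-like ones, could not be compared between the groups.

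**Figure D5:**
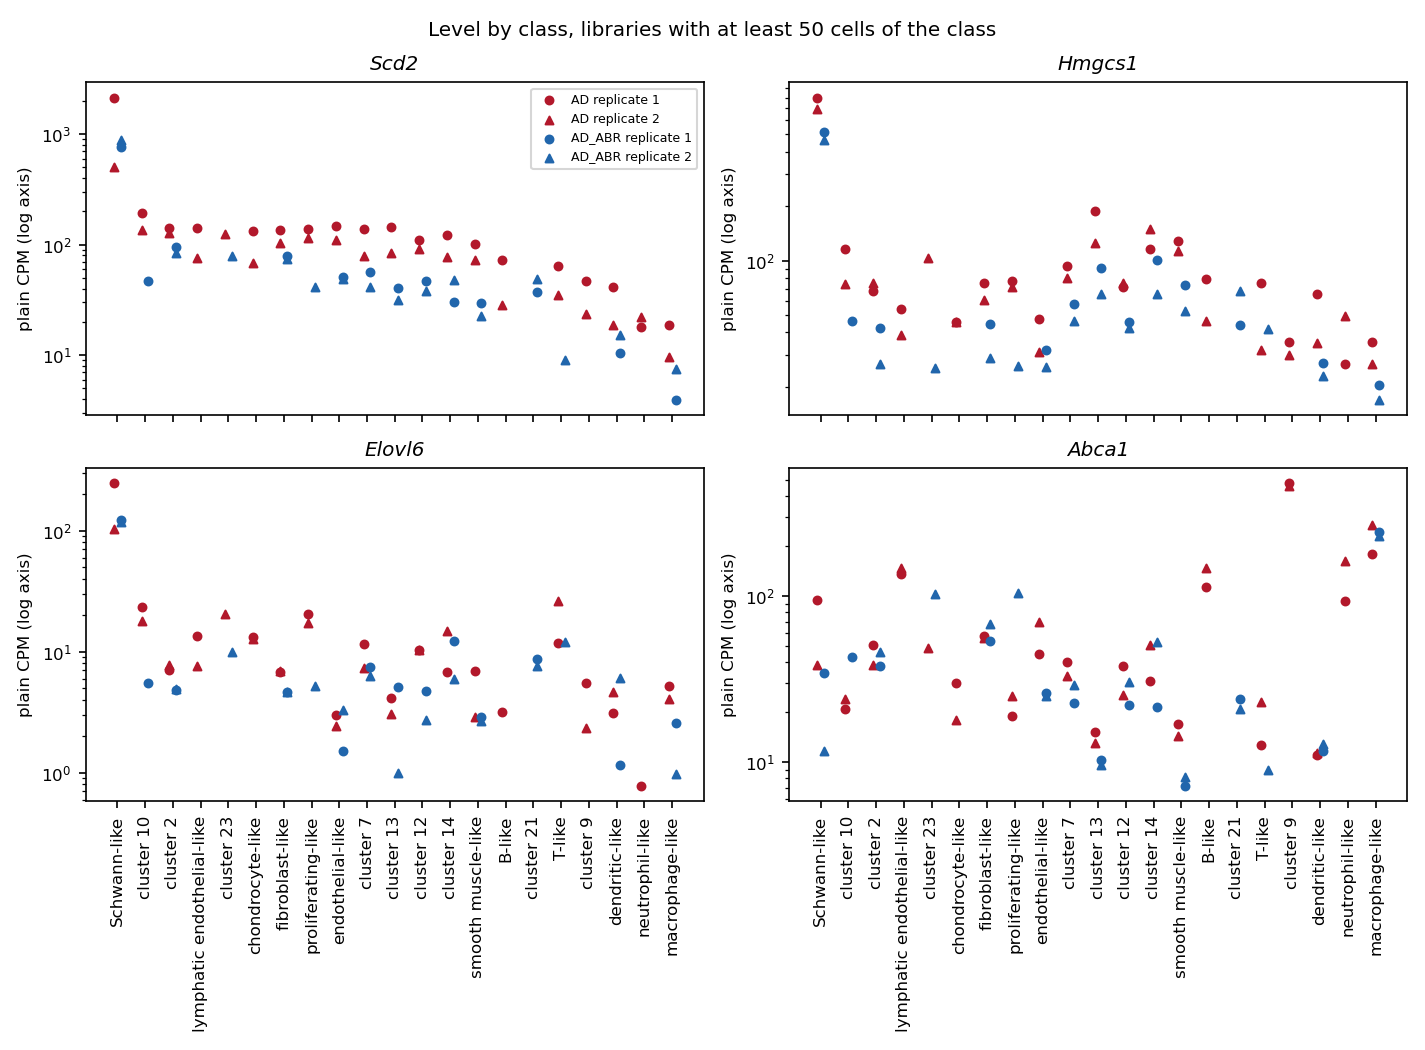
Unscaled CPM (log axis) of Scd2, Hmgcs1, Elovl6 and Abca1 in each class, 1 point per library with at least 50 cells of the class, AD in red and AD_ABR in blue. Schwann-like cells stand highest for Scd2, Hmgcs1 and Elovl6, and cluster 9 for Abca1.

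Genes of the same pathways outside the 34 were counted by list in smooth muscle-like cells, in TMM-scaled CPM and by the same test. Of 20 other fatty acid genes 3 fell and 1 rose, where 7.68% of all genes in this class were lower and 5.93% higher. The phosphatidate phosphatase Lpin1 fell by 0.95 on the log2 scale, from 25.9 and 19.97 CPM in AD to 11.3 and 12.1 in AD_ABR, the acyl-CoA synthetase Acsl3 fell by 0.65, and the mitochondrial acetyl-CoA carboxylase Acacb fell by 1.03. Hsd17b12, a reductase of fatty acid elongation, rose by 0.61, with 37.0 and 43.2 CPM in AD and 65.2 and 58.5 in AD_ABR, and the groups did not overlap. Of 9 LXR and efflux genes 2 fell, among them Mylip, a ubiquitin ligase induced by LXR (by 0.75). Of 11 genes of sterol uptake, storage and trafficking 1 passed, Osbp, an oxysterol-binding protein, which rose (log2 fold change 0.40). Of 7 other SREBP processing genes none passed the edgeR test, with 2 higher at an unadjusted p under 0.05.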

How the data were processed

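Gene expression was measured by droplet single-cell RNA sequencing (10x Genomics) in 4 libraries of mouse ascending aorta, 2 AD and 2 AD_ABR. The deposited matrices hold raw UMI counts per gene and barcode, with Cell Ranger 7.1.0 named per the file headers, while the submitters' processing notes name Cell Ranger 6.0, STAR, Seurat 4.0 and GRCm38. Barcodes with at least 200 genes and a mitochondrial share below 20% were kept. The highest Scrublet doublet scores were removed at 0.8% per 1000 barcodes (665 to 934 barcodes per library), and 37259 cells were left.

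Cells were clustered on 2000 variable genes, 30 principal components, 15 neighbours and Leiden resolution 1 (scanpy 1.11.5, Python 3.11.15), which gave 31 clusters. Of the 34 members 4 were among the variable genes. Clusters were named from 25 marker lists and otherwise kept their number. Counts were summed per library and class where each library held at least 50 cells, and AD_ABR was tested against AD over all genes with edgeR 4.0.16 in R 4.3.3 (TMM, filterByExpr, robust quasi-likelihood F test, Benjamini-Hochberg adjustment, threshold 0.05). Differences between classes were tested as an interaction with library as a term. Both fits were also run on simulated counts with a fixed dispersion, the same for all genes, and libraries that differed otherwise in size only. That simulation cannot show how the fits treat the spread between the real libraries, and its outcome is not given. No 2 libraries agreed within sampling noise (chi-square per degree of freedom 63.3 to 441).

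Members and lists were chosen with earlier results of these data known. Members past the test in smooth muscle-like cells, and up to 8 in each other class, are given per library in the classes where they passed and by range elsewhere. Other pathway genes are named up to 10 by adjusted p. Some results on other pathway genes are not reported here. Alternatives were DESeq2 1.42.0 and its size factors, no filter, each library left out, a replicate block, thinned sums, other clusterings, doublet and mitochondrial limits, Rn18s-rs5 left out and single clusters. Clusters 3, 4 and 5 alone, a crossed pairing and levels over the AD libraries alone were added after seeing the data.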

Additional observations from a re-analysis of the deposited data

Results flagged for a closer look

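In 10 cases the change of a member between AD and AD_ABR differed between smooth muscle-like cells and another class by the edgeR interaction test (Benjamini-Hochberg adjusted p under 0.05), and in each the value in the other class was nearer to 0 or above it. In 7 of the 10 it was below 0, and in 3, Abca1 in fibroblast-like and Idi1 and Msmo1 in Schwann-like cells, it was slightly above. Against fibroblast-like cells the differences on the log2 scale were 1.27 for Insig1, 1.05 for Scd2, 1.058 for Abca1, 0.91 for Hsd17b7 and 0.58 for Fads1. The share of cluster 3 in the fibroblast-like class also moved with the groups, and its part in these differences was not tested. Against endothelial-like cells they were 1.09 for Insig1 and 1.17 for Stard4. Against Schwann-like cells they were 1.70 for Idi1, 1.36 for Msmo1 and 1.39 for Scd2, from 53 to 198 cells per library. Insig1, Scd2 and Abca1 against fibroblast-like cells were the only 3 that passed whichever of the 4 libraries was left out.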

How the results depend on the processing

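With 2 libraries per group, a call rests on few degrees of freedom, and the depth of small classes limits what can be seen: of the 34 members 25 could be tested in Schwann-like cells and 15 in cluster 14. Scrublet's own threshold marked 1 barcode in AD replicate 1, so it did not work there.

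In smooth muscle-like cells the count of members that fell was 16 to 21 under the 12 alternatives that keep all libraries, against 19, and 16 to 23 with 1 library left out. The number of all genes called in this class was 1993, with 1303 by DESeq2, 898 without AD_ABR replicate 2 and 3155 without AD replicate 2. The sign of no member reported as lower changed under any setting.

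Counts of lower members in other classes moved more, and the cause was not tested. As the share of all genes called lower in each fit is not given beside them, these counts do not show a change particular to the members. Without a filter on low counts they were 7 in all cells (3 in the reported fit), 5 in cluster 12 (0), 1 in cluster 14 (0), 4 in cluster 2 (1), 5 in dendritic-like (0), 9 in fibroblast-like (0) and 6 in macrophage-like cells (0). With DESeq2 they were 9 in all cells, 1 in cluster 12, 1 in cluster 7 (3), 2 in endothelial-like (4) and 1 in fibroblast-like cells. Thinned sums gave 2 in cluster 2 and 0 in cluster 7. Fibroblast-like cells had 1 with the mitochondrial limit of 10% and 3 in cluster 4 alone. Macrophage-like cells had 2 at Leiden resolution 0.5 and 4 with the threshold that Scrublet sets itself. These settings also changed which cells a class held. At resolution 0.5 the macrophage-like class held 1788 and 958 AD cells, against 1055 and 524 in the reported fit. With Scrublet's threshold it took in an Arg1-led cluster. At the mitochondrial limit of 10% the fibroblast-like class took in a cluster led by Fmod and Inmt.

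With the replicate number as a block the counts were 21 in smooth muscle-like cells, 0 in all cells, 1 in cluster 12, 6 in cluster 2, 3 in dendritic-like, 7 in endothelial-like, 6 in fibroblast-like and 1 in Schwann-like cells. The libraries share only a number: deviations of same-numbered libraries correlated at −0.14 to 0.15 over the classes. The crossed pairing, tried where this was under −0.1, gave 0 in cluster 12 and 1 in cluster 14.

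Leaving out 1 library at a time gave ranges of 0 to 8 in all cells, 0 to 6 in cluster 12, 6 to 10 in cluster 13, 0 to 2 in cluster 14, 0 to 3 in cluster 2, 1 to 9 in cluster 7, 0 to 4 in dendritic-like, 1 to 9 in endothelial-like, 0 to 7 in fibroblast-like, 0 to 16 in macrophage-like and 0 to 5 in Schwann-like cells. The number of members whose change differed from smooth muscle-like cells also varied with the library left out. Such fits leave 1 library in a group. The share of all genes called in them is not given, so they do not show a change or difference particular to the members.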
